A study of Rattus norvegicus with 12 samples.

Results

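The genes that make, move, break down and sense serotonin in the rat colon were read from the arrays of 12 male Wistar rats. They are Tph1, Tph2, Ddc, Slc18a1, Slc6a4, Maoa, Maob, Htr3a, Htr4 and Htr2b, and every probe that the array files name by one of these symbols was taken, whatever its signal. This gave 12 probes for the 10 genes, of 30367 probes with 26514 gene names in all, with 2 probes each for Tph1 and Ddc. Group C held 4 rats (C1 to C4) that stayed with their mothers and received placebo. Group M held 4 rats (M5 to M8) that underwent neonatal maternal separation (NMS), 180 min a day from day 2 to day 14, and received placebo. Group D held 4 rats (D9 to D12) that underwent NMS and received VSL#3, a mixture of probiotic bacteria, once a day. Placebo and VSL#3 were given by gavage in 100 µl of saline from day 3 to day 60, and the rats of all 3 groups underwent colorectal distension (CRD), so that no group shows the colon without it. Whole tissue of the same distal segment was taken from each rat, and the RNA of each rat was hybridized to 1 array. The study analysed 11 of the arrays, without D12, and so do the tests given first here, whereas D12 stands in every list of values per rat.

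Most serotonin of the body is made in the gut, by enterochromaffin cells of the epithelium, and the remainder by enteric and central neurons. Tryptophan hydroxylase turns tryptophan into 5-hydroxytryptophan and sets the rate of synthesis, with Tph1 as the form of enterochromaffin cells and Tph2 as that of neurons. Ddc, the aromatic amino acid decarboxylase, completes the synthesis, and Slc18a1 (VMAT1) loads the product into secretory vesicles. Released serotonin is taken up by Slc6a4 (SERT), which ends its signal, and is oxidised by the monoamine oxidases Maoa and Maob. In the colon it acts on the ion channel Htr3a of sensory nerve endings, and on the G protein coupled receptors Htr4, which promotes peristalsis, and Htr2b. In rodents, mast cells also hold serotonin.

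The probes are single strands of 60 bases, and the first 30 bases are shown for those on which the comparisons below turn, to identify what each spot captured. The array files give positions on the rn4 build. The probe A_44_P306204 of Tph1 is placed at chr1:97186071-97186087, where the files align only 17 of its 60 bases, and the probe A_64_P048210 of Tph1 at chr1:97188245-97188304, 2157 bases away on the same strand. The probe of Slc6a4 lies at chr10:67140063-67140122 and that of Maob at chrX:17657030-17657089. The probe of Htr3a lies at chr8:52161175-52161234, and whether a probe lies in a coding or a noncoding part of its exon is not given in the files.
Tph1 A_44_P306204: tgtaattctttcccagagagagccattcct
Tph1 A_64_P048210: ctgcttagggaaatataattcacatgccac
Slc6a4: ccactggagtatcgtcttgggctactgcat
Maob: ttgtcagcaacagctcttggtttcctggcc
Htr3a: ttcttcttcagctcacttgtgggtacttcc

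Stretches of 250 bases before the transcription start were available from RefSeq (GRCr8 build) for 6 of the 10 genes. The means of Tph1 and Maob were higher in Group M than in Groups C and D, though neither gene passed the adjusted threshold used below on the 11 arrays. Their stretches are shown with that of Maoa, the neighbour of Maob on the X chromosome. Capitals mark 3 motifs, each searched on both strands: the CCAAT box (CCAAT or ATTGG), the GC box (GGGCGG or CCGCCC) and the TATA box (TATAAA or TTTATA). Tph1 lies at chr1:106314629-106314878 (minus strand), Maob at chrX:8490155-8490404 (plus strand) and Maoa at chrX:8681373-8681622 (minus strand).
Tph1: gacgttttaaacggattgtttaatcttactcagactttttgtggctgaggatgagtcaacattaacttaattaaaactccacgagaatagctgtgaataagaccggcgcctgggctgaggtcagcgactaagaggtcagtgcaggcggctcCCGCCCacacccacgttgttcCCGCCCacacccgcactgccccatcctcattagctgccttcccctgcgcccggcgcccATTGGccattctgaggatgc
Maob: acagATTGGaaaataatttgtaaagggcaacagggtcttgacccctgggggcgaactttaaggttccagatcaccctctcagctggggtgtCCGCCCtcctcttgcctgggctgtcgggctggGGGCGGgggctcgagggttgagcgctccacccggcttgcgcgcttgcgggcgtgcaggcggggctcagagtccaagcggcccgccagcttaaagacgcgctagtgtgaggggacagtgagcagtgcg
Maoa: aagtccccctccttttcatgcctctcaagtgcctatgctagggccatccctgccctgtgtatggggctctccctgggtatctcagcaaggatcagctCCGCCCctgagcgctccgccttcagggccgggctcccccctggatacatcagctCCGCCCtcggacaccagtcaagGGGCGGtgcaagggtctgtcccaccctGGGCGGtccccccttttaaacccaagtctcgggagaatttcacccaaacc

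The stretch of Tph1 held 2 GC boxes and 1 CCAAT box on the reverse strand, whose first base lies 20 bases before the start. That of Maob held 2 GC boxes and 1 CCAAT box, and that of Maoa held 4 GC boxes. No GC box was found in the stretches of Tph2, Ddc and Htr2b, the matched genes that are not shown. Of 33469 rat promoter stretches of the same length, 30.5% held a GC box, 34.0% a CCAAT box and 12.9% a TATA box. These matches describe the letters alone.

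All values below are log2 signals relative to the 75th percentile of the array, so that 0 is the signal of a bright probe and a difference of 1 is a doubling. Groups C and M shared 1 slide and 1 scan, and the arrays of Group D were on another slide with its own scan, so that slide and group cannot be told apart in any comparison with Group D. On the shared slide, the arrays of Group C were in row 1 and those of Group M in row 2, so that row and group cannot be told apart either. On each array, 75.5% to 77.5% of spots were brighter than background by the scanner software's own flag (well above background). The flag was set for 10 of the 12 serotonin probes on all 12 arrays, for the probe of Htr4 on 11 of them and for that of Tph2 on 1. Markers of epithelium and of smooth muscle were bright in every rat, with summed signals of at least 164 and 163 times the 75th percentile, whereas the summed signal of markers of the anal squamous epithelium was at most 0.0795 times it. The arrays hold RNA of whole tissue, in which fewer cells of a type and less RNA per cell cannot be told apart.

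Across the 10 genes, the synthesis gene Tph1 was above all of Group C in the 4 rats of Group M, Maob was so in 3 of the 4, Slc6a4 and Htr4 were below Group C in 3 of them, and Htr3a was higher in D9 to D11 than in Group M. By limma, with p-values adjusted over 30348 probes and a call at an adjusted p of at most 0.05, 0 of 12 probes passed in Group M vs Group C, where 0.208% of all probes passed. None of the 12 passed in the comparisons of Group D with Group M and with Group C either, where 0.161% and 0.00659% of all probes passed. At an unadjusted p of at most 0.05, 4 of 12 passed in Group M vs Group C (3 higher, 1 lower), against 22.7% of all probes. The same threshold was passed by 4 of 12 in Group D vs Group M (1 higher, 3 lower), against 21.6% of all probes, and by 0 of 12 in Group D vs Group C, against 5.99%. The share of members past the unadjusted threshold in the first 2 comparisons was therefore near that of all probes. The median difference of the 12 probes was -0.01 for Group M vs Group C, 0.12 in Group D vs Group M and 0.10 in Group D vs Group C, beside -0.01, 0.02 and 0.00 over all probes.

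The study's own criterion asks for an unadjusted pass in analysis of variance and in the Tukey test, and for means at least 2-fold apart. It was passed by 2 of 12 probes in Group M vs Group C, by 1 of 12 in Group D vs Group M and by 0 of 12 in Group D vs Group C, where 2.33%, 2.65% and 0.366% of all probes passed. These passes were both probes of Tph1 in the first comparison and 1 of them in the second. The values of the groups did not overlap for 2 of 12 probes in Group M vs Group C, for 3 of 12 in Group D vs Group M and for 2 of 12 in Group D vs Group C, of which 1 was Tph2 at the level of the background. Over all probes, 9.25%, 16% and 7.6% did not overlap. Comparisons of Group M and of Group D with the others share the arrays of Group M or of Group C, so their values are given side by side and not as independent results.

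**Figure D1:**
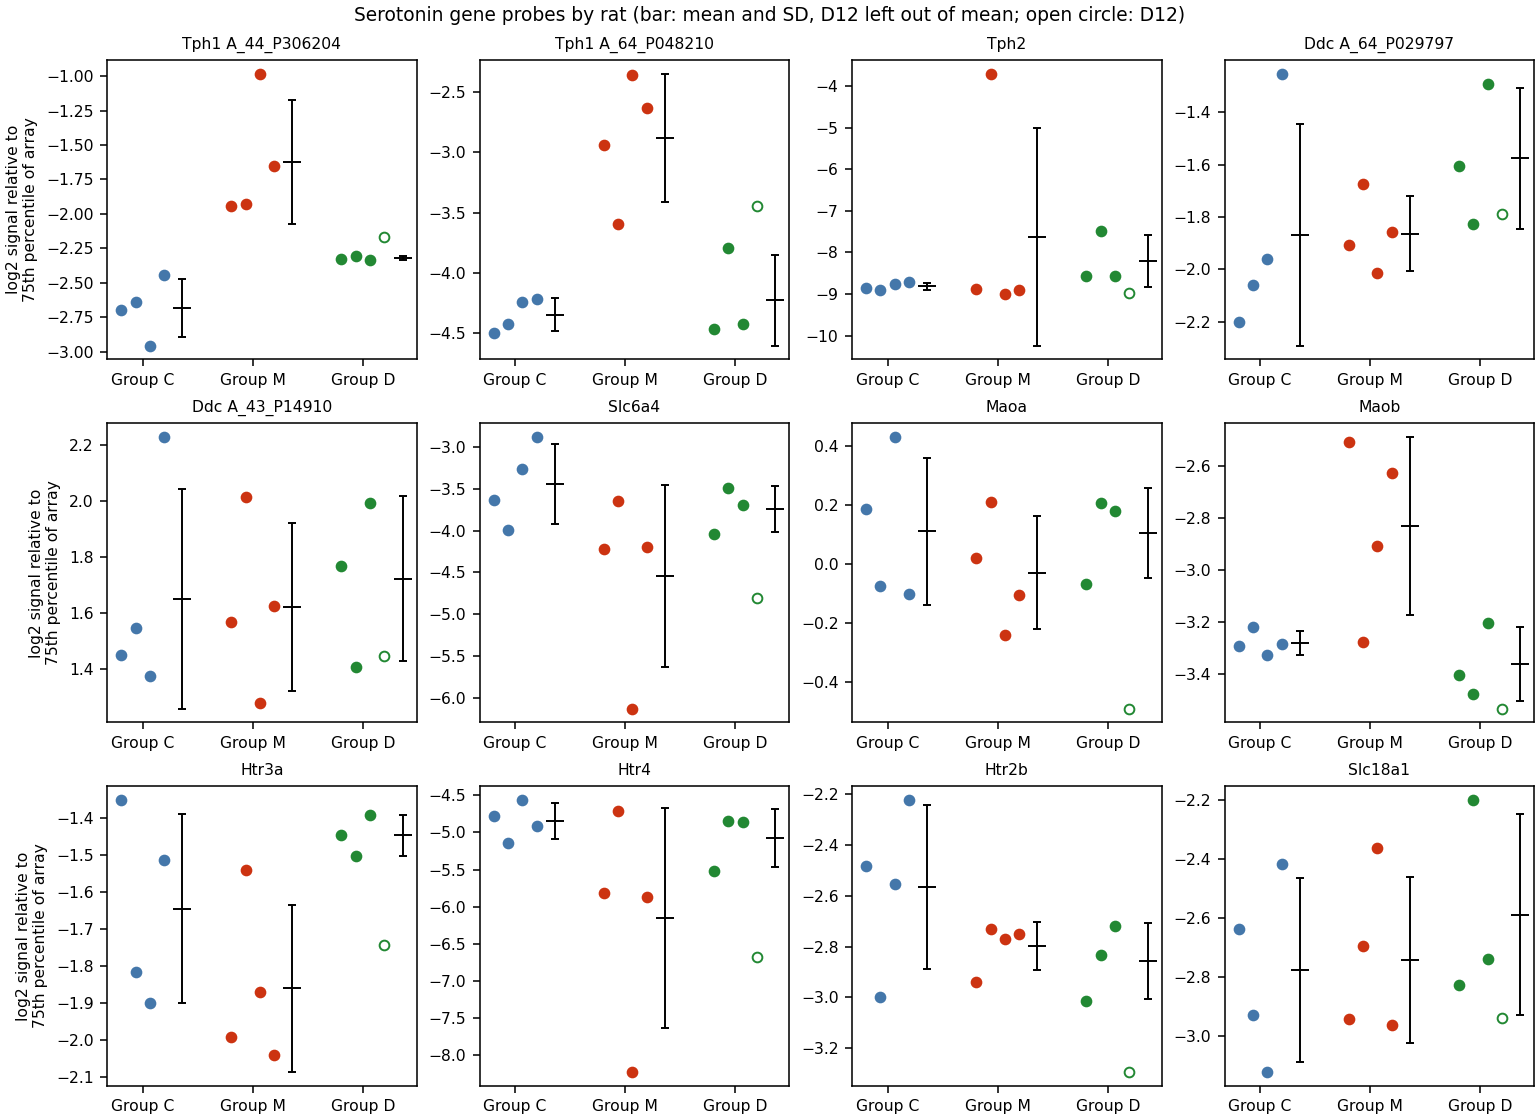
Log2 signal relative to the 75th percentile of the array (vertical axis, own range in each panel) for each of the 12 probes, by group. Each point is 1 rat, the open circle is D12, and the bars are the mean and SD over 4, 4 and 3 rats. All 4 rats of Group M lie above all 4 of Group C for both probes of Tph1, and rat M6 alone stands far above the others for Tph2.

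Tph1 was higher in Group M than in Group C by both of its probes and lower again in Group D. With the probe A_44_P306204, the signal in Group C was -2.70 in C1, -2.64 in C2, -2.96 in C3 and -2.44 in C4. In Group M it was -1.94, -1.93, -0.98 and -1.65 in M5 to M8. In Group D it was -2.32 in D9, -2.31 in D10, -2.33 in D11 and -2.17 in D12. The 4 rats of Group M lay above every rat of the other groups, and the 4 rats of Group D lay between those of Group C and those of Group M, close to each other. The mean was -2.68 ± 0.21 (SD, n = 4) in Group C, -1.63 ± 0.45 (n = 4) in Group M and -2.32 ± 0.01 (n = 3) in Group D. Group M minus Group C was 1.06 (SE 0.20, 2.08-fold), with an adjusted p of 0.0815 by limma. Group D minus Group M was -0.69 (SE 0.22), with an adjusted p of 0.127, and Group D minus Group C was 0.36 (SE 0.22), with an adjusted p of 0.918.

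With the probe A_64_P048210, the signal of Tph1 in Group C was -4.50 in C1, -4.43 in C2, -4.24 in C3 and -4.22 in C4. In Group M it was -2.94, -3.6, -2.35 and -2.63 in M5 to M8. In Group D it was -4.47 in D9, -3.79 in D10, -4.42 in D11 and -3.44 in D12. Every rat of Group M again lay above every rat of Group C, D9 and D11 lay within the range of Group C, and D12 was the only rat of Group D above the lowest rat of Group M, which was M6. The mean was -4.35 ± 0.14 (SD, n = 4) in Group C, -2.88 ± 0.53 (n = 4) in Group M and -4.23 ± 0.38 (n = 3) in Group D. Group M minus Group C was 1.47 (SE 0.25, 2.76-fold), with an adjusted p of 0.0644 by limma. Group D minus Group M was -1.35 (SE 0.27), with an adjusted p of 0.0743, and Group D minus Group C was 0.12 (SE 0.27), with an adjusted p of 0.999. Both probes thus gave the same direction in both comparisons.

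The mean of both probes was taken for each rat and compared by an exact permutation test over rats, two-sided. It ranged from -3.6 to -3.33 in Group C and from -2.76 to -1.67 in Group M, a difference of 1.26 with an exact permutation p of 0.0286, the smallest that 4 rats against 4 allow. For Group D vs Group M with D9 to D11 the difference was -1.02 with an exact permutation p of 0.0571, again the smallest that the design allows, and with D12 included it was -0.90 with p = 0.0286. The exact test for Group D vs Group C gave a difference of 0.24 and p = 0.114 with 3 rats, and 0.36 and p = 0.0857 with 4. Tph1 is named among the changed pain genes that the study drew from these same arrays, so its direction here is not independent evidence. With all 12 arrays in the model, Group M minus Group C kept its size and had adjusted p-values of 0.101 and 0.114, while Group D minus Group M was -0.66 and -1.15 with adjusted p-values of 0.247 and 0.185.

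The result by limma depended on rat M6, which lay within the range of Group C for Slc6a4, Maob and Htr4. Without M6, 4 of 12 probes passed the adjusted threshold in Group M vs Group C, against 16.2% of all probes, and 4 of 12 in Group D vs Group M, against 15%. Both probes of Tph1 were among them in both comparisons: Group M minus Group C was 1.16 (adjusted p = 0.0133) and 1.70 (adjusted p = 0.00410), and Group D minus Group M was -0.79 (adjusted p = 0.0453) and -1.59 (adjusted p = 0.00692). Maob was the third in both, and the fourth was Htr4 in the first and Htr3a in the second. M6 itself had Tph1 signals above every rat of Group C by both probes. It was also the rat of Group M with dim leukocyte markers (described below), with a summed signal of 1.73 against 5.42 to 7.25 in M5, M7 and M8. These markers were at 1.62 to 1.92 in D9 to D11, and in Group C only C2, at 5.47, was bright. Without M6, leukocyte signal and group can therefore not be told apart in Group D vs Group M, and hardly in Group M vs Group C. The part of leukocytes in these passes was not tested.

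**Figure D2:**
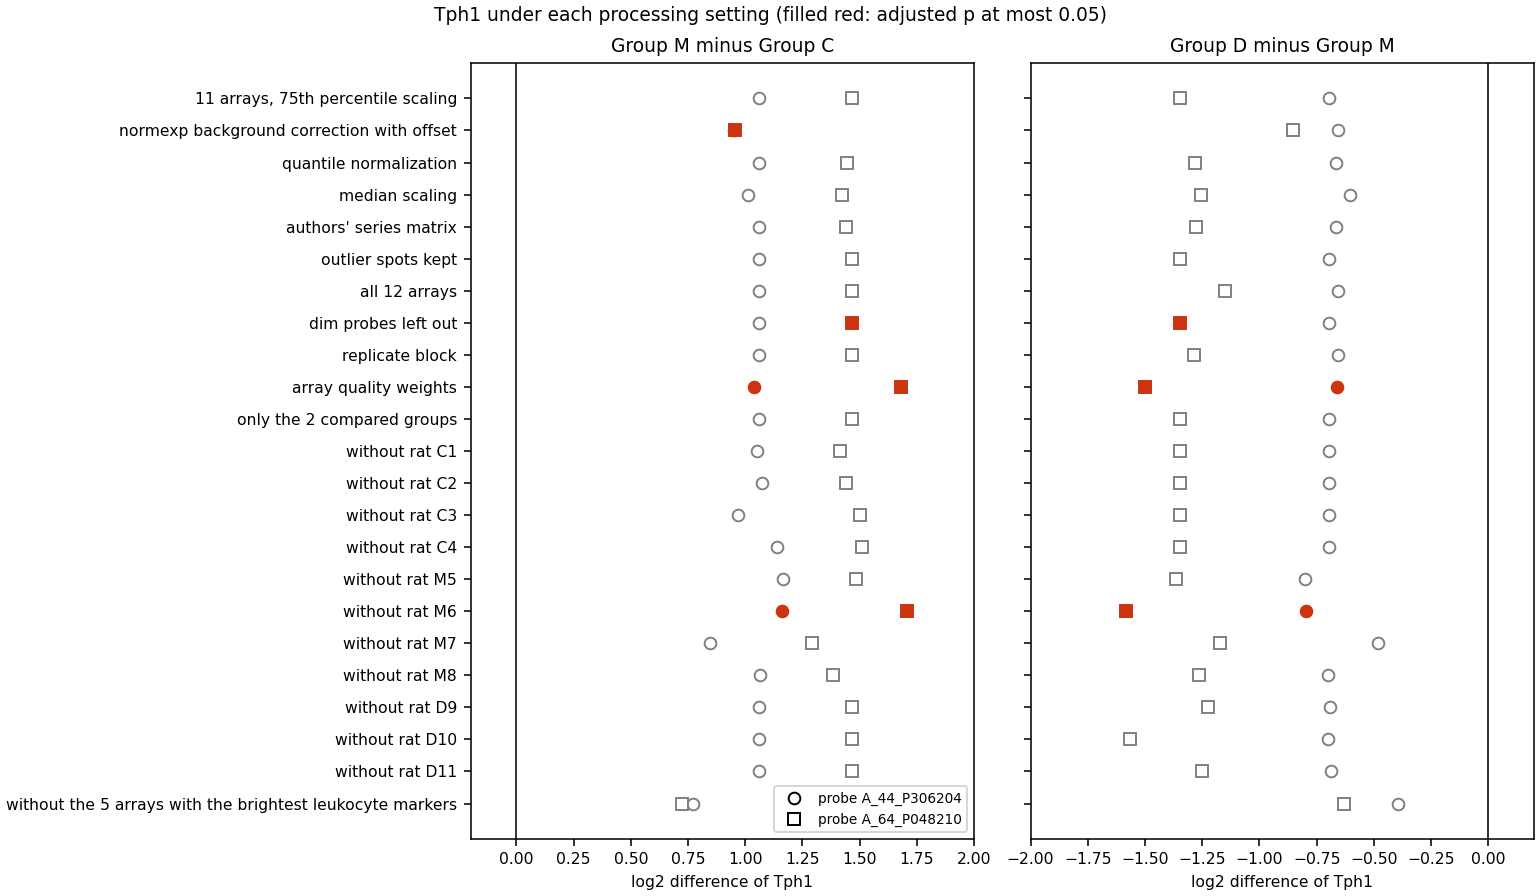
Log2 difference of Tph1 between Groups M and C (left) and between Groups D and M (right) under each processing setting, for both probes (circles and squares). Filled red symbols have an adjusted p of at most 0.05. The differences keep their sign under all settings drawn, and both probes pass in both comparisons with array weights or without rat M6.

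Tph2, the neuronal form, was not well above background on 11 of the 12 arrays. Its signal ranged from -8.91 to -8.72 in Group C, was -8.89, -9.0 and -8.91 in M5, M7 and M8, and ranged from -8.97 to -7.49 in the 4 rats of Group D. Rat M6 had a signal of -3.70, and both spots of the probe were bright on its array, at -4.60 and -2.81. Tph2 was therefore measured above background in 1 rat only. For Tph2, Group M minus Group C was 1.18 (adjusted p = 0.532 by limma), and -0.12 without M6. Since the signals of all other rats were at background, a fold between the groups was not measured.

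Ddc, the enzyme that follows both hydroxylases, showed no such pattern. With the brighter probe, A_43_P14910, the signal was 1.45, 1.55, 1.38 and 2.23 in C1 to C4, 1.57, 2.01, 1.28 and 1.63 in M5 to M8, and 1.77, 1.41, 1.99 and 1.45 in D9 to D12. The 3 groups overlapped over most of their range, and C4 was the highest rat with this probe and with the other. Between Groups M and C the difference was -0.03 with a 95% interval from -0.52 to 0.47, and 0.01 (-0.44 to 0.46) with the probe A_64_P029797. Between Groups D and M the differences were 0.10 (-0.43 to 0.63) and 0.29 (-0.20 to 0.77) with the same 2 probes.

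Of the transport genes, Slc6a4, the transporter that takes serotonin up, was lower in Group M, and 1 rat carried much of the difference. The signal in Group C was -3.64 in C1, -3.99 in C2, -3.26 in C3 and -2.88 in C4. In Group M it was -4.22, -3.64, -6.13 and -4.20 in M5 to M8. In Group D it was -4.04 in D9, -3.50 in D10, -3.69 in D11 and -4.80 in D12. M5, M7 and M8 lay below all of Group C, M6 lay within it, and D9 and D12 lay below Group C, D9 only just. Group M minus Group C was -1.10 (SE 0.47, a 2.15-fold lower mean), with an unadjusted p of 0.0409 and an adjusted p of 0.200 by limma. Without M7 it was -0.58, with an adjusted p of 0.347. The difference of Group D from Group M was 0.80 (SE 0.51), with an adjusted p of 0.389, and it too rested on M7, at 0.28 without that rat and 0.54 with all 12 arrays.

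Slc18a1, the vesicle transporter of enterochromaffin cells, ranged from -3.12 to -2.42 in Group C, from -2.96 to -2.36 in Group M and from -2.94 to -2.20 in Group D. The groups overlapped almost fully. For Group M minus Group C the value was 0.04 with a 95% interval from -0.42 to 0.49, and Group D minus Group M was 0.15 (-0.34 to 0.65).

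Of the breakdown genes, Maob had the higher mean in Group M without passing the adjusted threshold. The signal of Maob in Group C was -3.29 in C1, -3.22 in C2, -3.33 in C3 and -3.29 in C4. In Group M it was -2.51, -3.28, -2.91 and -2.63 in M5 to M8. In Group D it was -3.41 in D9, -3.48 in D10, -3.20 in D11 and -3.53 in D12. M5, M7 and M8 lay above every rat of Groups C and D, whereas M6 lay within Group C, whose 4 rats lay close to each other. Group M minus Group C was 0.45 (SE 0.16, 1.37-fold), with an unadjusted p of 0.0155 and an adjusted p of 0.140 by limma. Group D minus Group M was -0.53 (SE 0.17), with an unadjusted p of 0.00985 and an adjusted p of 0.127. Without M6 these differences were 0.60 (adjusted p = 0.0150) and -0.68 (adjusted p = 0.0137).

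Maoa, the form with the higher affinity for serotonin, was 0.19, -0.07, 0.43 and -0.10 in C1 to C4, 0.02, 0.21, -0.24 and -0.11 in M5 to M8, and -0.07, 0.21, 0.18 and -0.49 in D9 to D12. No group stood apart, and D12 was the lowest of the 12 rats. The value of Group M minus Group C was -0.14 with a 95% interval from -0.47 to 0.19, and Group D minus Group M was 0.14 (-0.22 to 0.49).

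**Figure D3:**
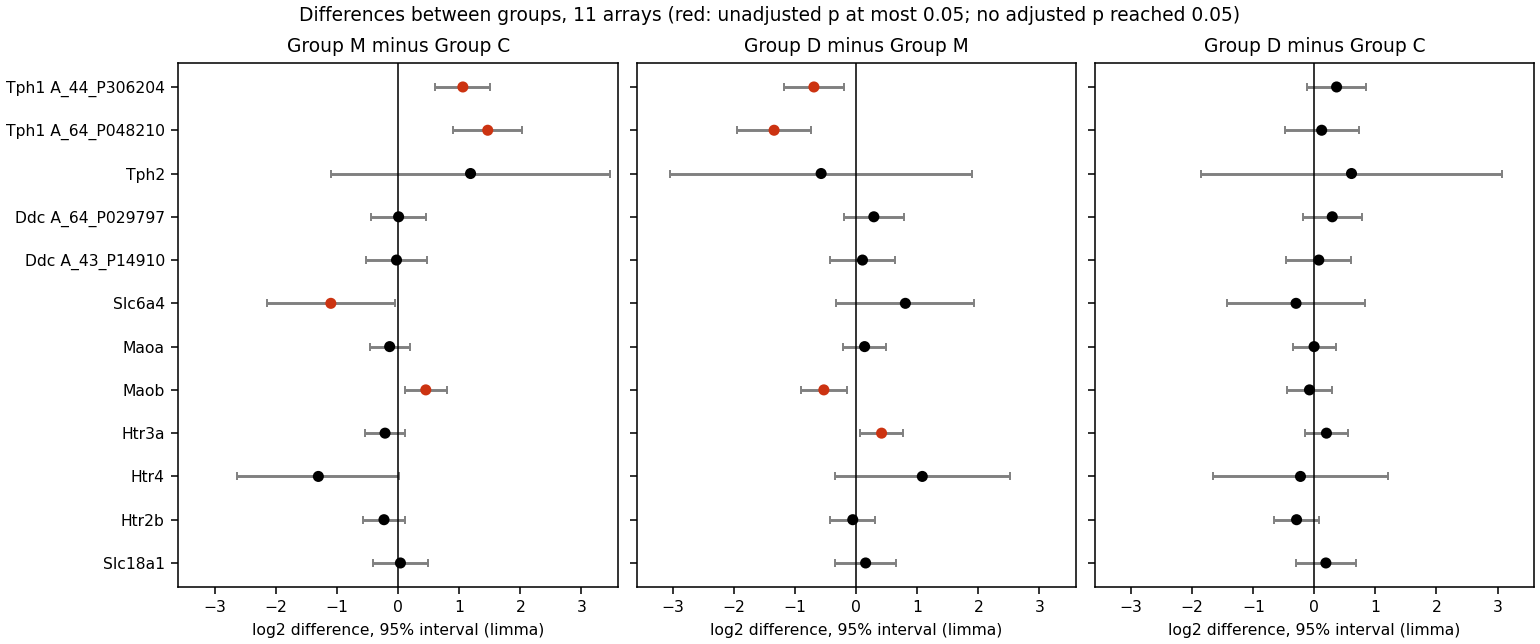
Log2 difference between groups for the 12 probes on 11 arrays, with the 95% interval by limma as the bar. Red points have an unadjusted p of at most 0.05. Both probes of Tph1 lie above 0 in Group M minus Group C, below 0 in Group D minus Group M, and have intervals that include 0 in Group D minus Group C.

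Of the receptors, Htr3a, the subunit that forms the serotonin-gated channel, was -1.35, -1.81, -1.90 and -1.51 in C1 to C4. In Group M it was -1.99, -1.54, -1.87 and -2.04 in M5 to M8, and in Group D -1.45 in D9, -1.5 in D10, -1.39 in D11 and -1.74 in D12. Group C overlapped with both other groups, and D9 to D11 lay above all of Group M. Groups D and M differed by 0.41 (SE 0.16, 1.33-fold), with an unadjusted p of 0.0273 and an adjusted p of 0.177 by limma. With D12 in the model it was 0.34, and the groups then overlapped. As for Group M minus Group C, it was -0.22, with a 95% interval from -0.55 to 0.11.

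Htr4, the receptor that enhances peristalsis, was lower in 3 rats of Group M. The signal in Group C was -4.78 in C1, -5.14 in C2, -4.56 in C3 and -4.91 in C4. In Group M it was -5.81, -4.71, -8.23 and -5.87 in M5 to M8, where M7 was not well above background. In Group D it was -5.52 in D9, -4.84 in D10, -4.86 in D11 and -6.68 in D12. M5, M7, M8, D9 and D12 lay below all of Group C, and M6 lay within it, and M6 was the highest and M7 the lowest rat of Group M here as for Slc6a4. Group M minus Group C was -1.31 (SE 0.60), with an unadjusted p of 0.0524 and an adjusted p of 0.225, and without M6 it was -1.79 with an adjusted p of 0.0480. Without M7 it was -0.62, and with the normexp background correction, which compresses low signals, -0.47. Another probe, which the files describe as Htr4 under a transcript name and which is not counted among the 12, never rose above background by the flag.

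Htr2b ranged from -3.0 to -2.22 in Group C, from -2.94 to -2.73 in Group M and from -3.29 to -2.72 in Group D. The groups overlapped, and Group M had the narrowest range. Means of Groups M and C differed by -0.23, with a 95% interval from -0.57 to 0.11, and Group D minus Group M was -0.06 (-0.43 to 0.31). Between Groups D and C the difference was -0.29 (-0.66 to 0.08) with 3 rats of Group D, and -0.40 (unadjusted p = 0.0368, adjusted p = 0.708) with all 4. The other 11 serotonin receptor genes on the array, Htr1a to Htr7, were close to background: 4 of them were well above it on no array and 0 of them on all 12. None of the 11 had an unadjusted p of at most 0.05 in either comparison with Group M.

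The genes around serotonin were described by 1 probe per gene, the brightest. The 6 genes of tetrahydrobiopterin, the cofactor that tryptophan hydroxylase needs, were lower in Group M for 5 of 6, with 3 lower at an unadjusted p of at most 0.05 and 0 higher, where 22.7% of all probes passed in either direction. They were Gchfr, the feedback regulator of the pathway, at -0.80 (SE 0.24), Pts, which makes the precursor of the cofactor, at -0.68 (SE 0.22), and Qdpr, which recycles it, at -0.22 (SE 0.08), with adjusted p-values of 0.118, 0.127 and 0.155. All 6 were higher in Group D than in Group M, 4 of them at an unadjusted p of at most 0.05, where 21.6% of all probes passed. Gch1, the first enzyme of the pathway, ranged from -0.54 to -0.40 in Group C and from 0.14 to 0.28 in Group D, a difference of 0.69 (SE 0.16) with an adjusted p of 0.517. The median difference of the 6 genes was -0.25 between Groups M and C and 0.33 between Groups D and M, beside -0.01 and 0.02 over all probes.

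Of 5 carriers of tryptophan and other large amino acids, 2 were higher in Group M at an unadjusted p of at most 0.05, beside 22.7% of all probes past it. Slc7a5, the light chain of the carrier LAT1, was -6.36, -5.03, -6.32 and -5.68 in C1 to C4, and -4.15, -5.13, -3.28 and -4.36 in M5 to M8. Only M6 overlapped with Group C. Group M minus Group C was 1.62 (SE 0.40, adjusted p = 0.0995) and Group D minus Group M was -1.65 (SE 0.43, adjusted p = 0.0984). Slc3a2, its heavy chain, differed by 0.30 (SE 0.13, adjusted p = 0.205) between Groups M and C.

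The kynurenine route, which uses tryptophan for products other than serotonin, had 7 measured genes, 6 with a higher and 1 with a lower mean in Group M, with 2 higher at an unadjusted p of at most 0.05, again beside 22.7% of all probes. Ido1, its entry enzyme in inflamed tissue, was well above background in 3 of 4 rats of Group M, at -5.11 in M5, -4.82 in M7 and -4.21 in M8, in 1 of 4 rats of Group C, C2 at -6.60, and in 1 of 4 rats of Group D, D12 at -3.66. M6, at -8.27, was not well above background. Kynu, the kynureninase, was high in the same rats, at -2.60 in M5, -3.31 in M7, -3.0 in M8, -4.0 in C2 and -2.56 in D12, and between -7.50 and -5.38 in the others.

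Of 7 genes of other amine handling, Slc29a4, a carrier of low affinity for amines, was higher in Group M by 0.84 (SE 0.35, adjusted p = 0.196), which M5 at -1.43 and M8 at -1.89 carried, with the other 10 rats between -3.39 and -2.90. Slc18a2 (VMAT2), the vesicle transporter of neurons and mast cells, differed by -0.01 between Groups M and C. Of 6 partners of the receptors, Gna11, a G protein subunit to which Htr2 receptors couple, was lower in Group M by a difference of -0.87 (SE 0.15, adjusted p = 0.0575) without overlap. S100a10 (p11), which binds serotonin receptors and brings them to the cell surface, was higher by 1.31 (SE 0.33, adjusted p = 0.100). Together these lists hold no gene with an adjusted p of at most 0.05 in either comparison with Group M.

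**Figure D4:**
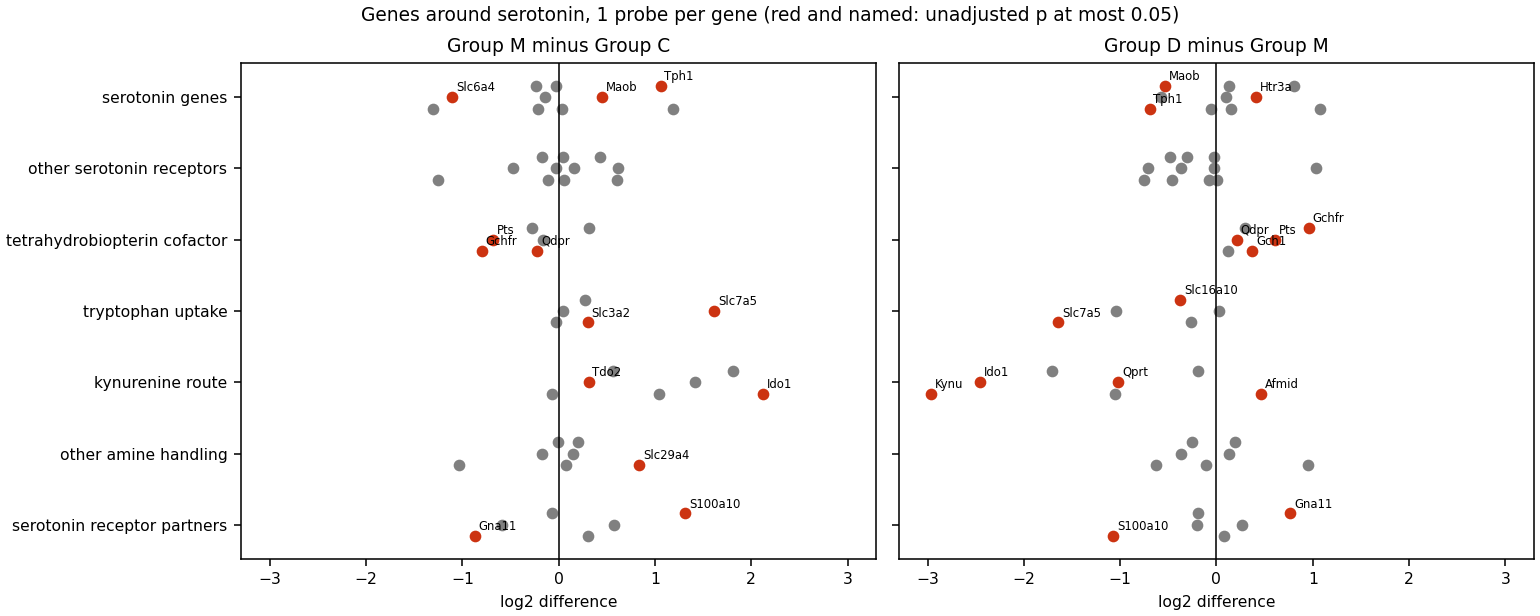
Log2 difference (horizontal axis) of Group M minus Group C and of Group D minus Group M for the genes of each list, 1 point per gene. Red points with names have an unadjusted p of at most 0.05. The tetrahydrobiopterin genes lie mostly below 0 on the left and above 0 on the right, and Ido1, Kynu and Slc7a5 mostly the other way.

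Markers of the cells that hold serotonin were set beside Tph1. Of 19 measured markers of enterochromaffin and other enteroendocrine cells, 17 were well above background on all 12 arrays, among them Chga and Chgb, and Fev, a transcription factor of serotonin cells, was so on none. The summed signal of the 19 was 15.8 to 18.5 times the 75th percentile in Group C, 15.6 to 23.8 in Group M and 16.2 to 20.6 in Group D, ranges that overlap. Chga differed by 0.05 and Chgb by 0.12 between Groups M and C. In Group M, 3 of the 19 were higher and 0 lower at an unadjusted p of at most 0.05, a smaller share than the 22.7% of all probes, namely Cck and Nts, hormones of other enteroendocrine cells, and Scg3, a granule protein, and Nts was well above background in 1 rat only. The median difference of the list was 0.05.

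Markers of mast cells were higher in Group M than in Group C for most genes, and most were also higher in Group D than in Group C. Their summed signal was 1.16 to 1.88 in Group C, 2.65 to 3.76 in Group M and 1.85 to 3.86 in Group D, and 11 of 12 markers were higher in Group M, 10 of them at an unadjusted p of at most 0.05, where 22.7% of all probes passed in either direction. Hdc, the enzyme that makes histamine, passed the adjusted threshold, at 1.61 (SE 0.23, adjusted p = 0.0421), and it was also higher in Group D than in Group C by 1.05 (SE 0.25, adjusted p = 0.527). Mcpt1, a mast cell protease, was not well above background in any rat of Group C and was so in all 4 of Group M. Kit, the receptor of mast cells and of the pacemaker cells of the gut, was the marker that was lower, at -0.49 (SE 0.19). Against Group M, 9 of the 12 markers were lower in Group D and 3 higher, with a median difference of -0.47. At an unadjusted p of at most 0.05, 3 were lower and 2 higher, where 21.6% of all probes passed in either direction. The summed signal of D11, 1.85, lay within the range of Group C. D10 had the highest summed signal of mast cell markers of all rats, 3.86, and its Tph1 signals of -2.31 and -3.79 were below every rat of Group M. Over the 12 rats, which fall into 3 groups, Pearson's r with the Tph1 probes A_44_P306204 and A_64_P048210 was 0.84 and 0.74 for Hdc, 0.74 and 0.88 for Tpsb2, 0.76 and 0.80 for Tpsab1, 0.32 and 0.12 for Ms4a2, and -0.69 and -0.83 for Kit, given as a description. Of the enteroendocrine markers, r was 0.83 and 0.78 for Tac1, 0.82 and 0.75 for Cck, 0.20 and 0.10 for Chga, and -0.58 and -0.77 for Pax4. High values were thus not particular to mast cell markers. The part of mast cells and of enteroendocrine cells in the Tph1 signal was not tested.

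Markers of leukocytes were bright in 5 rats, which were spread unevenly over the groups. These were M5, M7 and M8 of Group M, C2 of Group C, and D12, which the tests given first left out. Without D12, 6 of the 8 measured markers were higher and 2 lower in Group M than in Group C, with a median difference of 0.74. Only 1 of the 8, a higher one, had an unadjusted p of at most 0.05, a smaller share than the 22.7% of all probes. In Group D, 7 of the 8 were lower than in Group M (median difference -1.01), and all 8 were lower than in Group C. Leukocyte signal and group were therefore partly tied in these comparisons. The summed signal of the 8 measured markers was 5.47 times the 75th percentile in C2, 6.34 in M5, 7.25 in M7, 5.42 in M8 and 9.25 in D12, and between 1.60 and 1.95 in the other 7 rats. C2, with bright leukocyte markers, had Tph1 signals within the range of the other rats of Group C by both probes. M6, with dim ones, had Tph1 signals above all of Group C. M7, with the brightest leukocyte markers of Group M, had the highest Tph1 signals of all rats, -0.98 and -2.35. D12, with the brightest of all, had the highest Tph1 signals of Group D, -2.17 and -3.44. Without these 5 bright arrays, which leaves M6 alone in Group M, Group M minus Group C was 0.77 and 0.72 for the Tph1 probes, with adjusted p-values of 0.389 and 0.763, where the lone rat is assumed to vary like the other groups. Among the members, Slc6a4 and Htr4 were at their lowest in M7 and D12, and Maob was at its highest in M5 and M8 and at its lowest in D12. The part of leukocytes in these signals was not tested. Platelet markers, which come from blood that carries serotonin taken up elsewhere, had a summed signal of 1.31 to 1.80 in Group C, 1.63 to 3.19 in Group M and 1.12 to 1.78 in Group D, with M7 the highest.

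**Figure D5:**
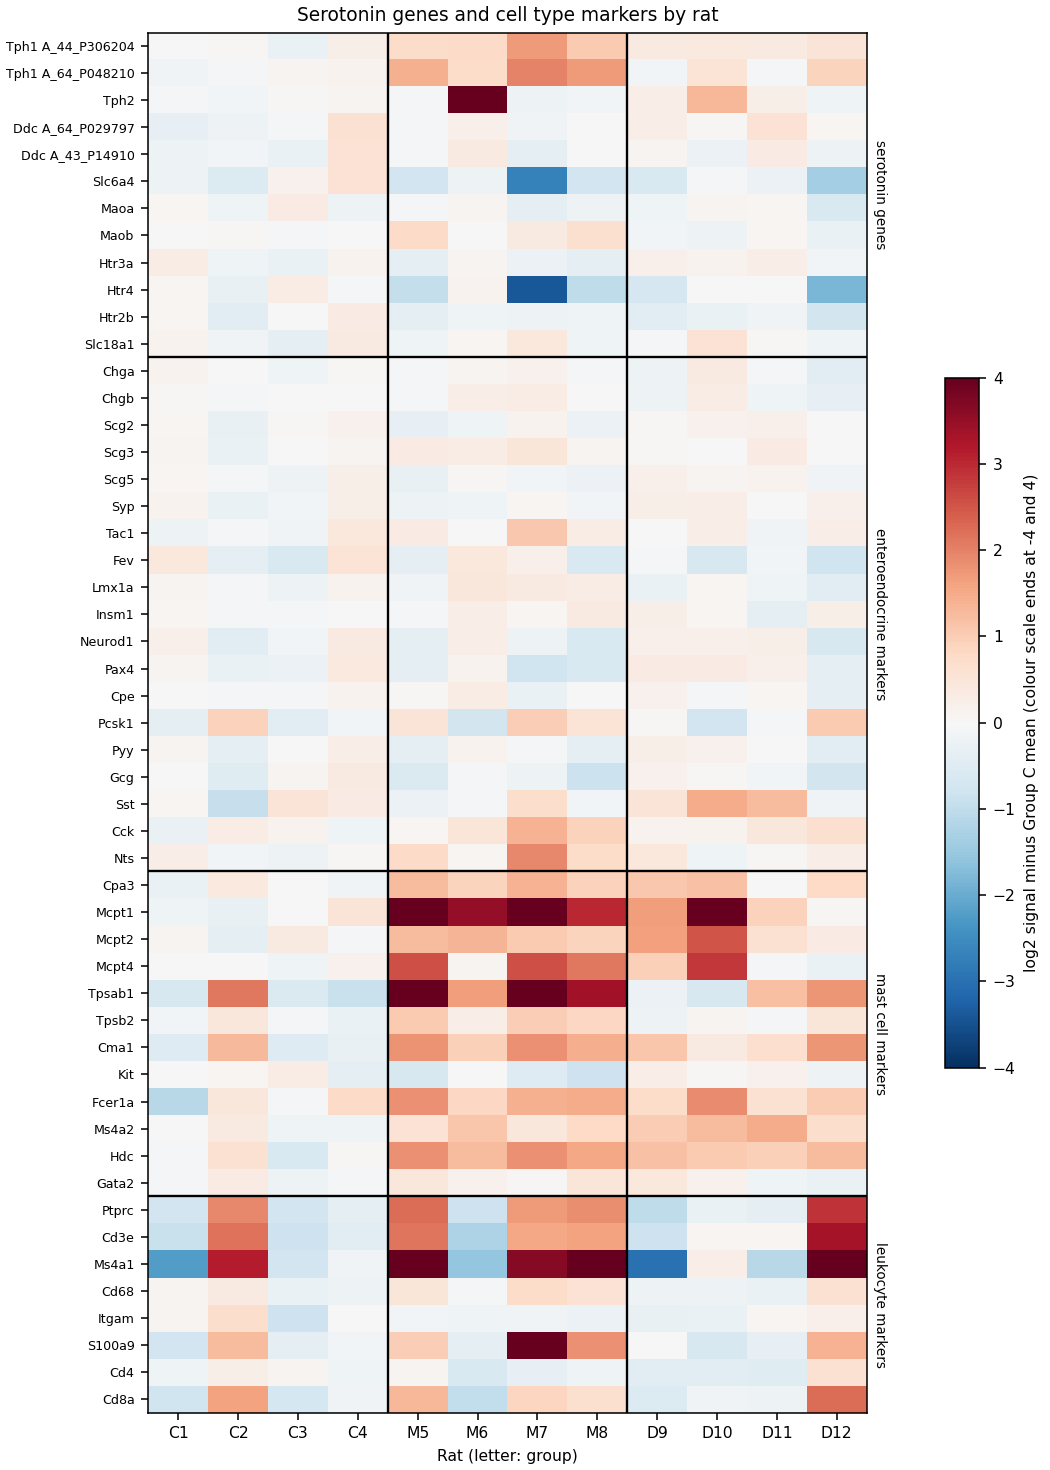
Log2 signal minus the Group C mean for the 12 serotonin probes and the markers of enteroendocrine cells, mast cells and leukocytes (rows) in the 12 rats (columns), with a colour scale that ends at -4 and 4. The Tph1 rows are warm in M5 to M8, most enteroendocrine rows are near 0 in every rat, and mast cell rows are warm in Group M and part of Group D. The leukocyte rows Ptprc and Ms4a1 are warm in C2, M5, M7, M8 and D12, whereas 2 of the 8 leukocyte markers had a lower mean in Group M than in Group C.

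The genes whose pattern over the 12 rats was most like that of Tph1, by its brighter probe and among 10563 named genes well above background on all arrays, were Cartpt (Pearson's r = 0.96), Psmc2 (0.95), Spred1 (0.95), Sox10 (0.94) and Ubxn4 (0.94). For Slc6a4 they were Bckdha, Sumf2, Alg6 and Mrpl13, with r between 0.96 and 0.97. For Maoa they were Samd10, Lrrc40, Mrps18a, Mcf2l and Peg12, with r between 0.91 and 0.93. These r values are the highest of many and are given as a description over 12 arrays that fall into 3 groups. The 5 genes most like Tph1 were themselves higher in Group M than in Group C, by 0.27 to 0.77, and the 4 named for Slc6a4 were lower, with differences from -0.66 to -0.32.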

How the data were processed

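Colonic RNA of 12 rats was labelled with Cy3 and hybridized to Agilent rat arrays, 1 per rat. The deposited intensity values (processed signal, mean signal and local background) came from Agilent Feature Extraction 10.5.1.1 per the file headers, with background subtraction and no normalization between arrays. The log2 values of the authors' matrix share 1 distribution, as after quantile normalization, and each of the 12 columns followed its own array most closely. The deposited flags (other columns) mark outliers, saturation and signals well above background.

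Here, control spots and 277 to 521 outlier spots per array were left out, signals were divided by the 75th percentile of the array (1434 to 1950), put on the log2 scale and averaged per probe. The percentile and the number of arrays, 3 or 4 per group, stand in place of depth and limit the precision. Groups were fitted in one model with limma 3.58.1 (lmFit, eBayes; R 4.3.3) on 11 arrays, with Benjamini-Hochberg adjustment over 30348 probes that had a value on every array (19 lacked one). The methods' criterion (analysis of variance, Tukey, 2-fold, unadjusted) and an exact permutation test for Tph1 were also run. Replicates are separate rats. The fit was tested on simulated data. All 12 probes of the 10 genes are named. Of the lists around them, genes past a test or with the largest differences are named (Slc18a2, Chga, Chgb, Fev and Mcpt1 were chosen after their values were seen), and for Tph1, Slc6a4 and Maoa the 5 genes of highest correlation (4 for Slc6a4). A few genes of the lists and rankings are not reported here. The members, gene lists and tests were chosen with earlier results of these data known. Positions are rn4, promoters GRCr8 (RefSeq, 6 of 10 genes matched). Alternatives were another background correction, scaling, quantile normalization, the authors' matrix, outliers kept, dim probes left out, array weights, a replicate block, the compared groups alone, all 12 arrays and each rat left out. Figures were drawn with Python 3.11.15 and matplotlib 3.10.9.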

Additional observations from a re-analysis of the deposited data

Results flagged for a closer look

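Of 36 sets of 4 rats (12 probes in 3 groups), 2 held a rat far from the other 3 by Dixon's test, where chance gives about 1 in 20. In Group M, Tph2 was -3.70 in M6, with the nearest other rat at -8.89, and both spots of the probe were bright in M6. In Group D, the Tph1 probe A_44_P306204 was -2.17 in D12, with the nearest other rat at -2.31, and D9 to D11 lay close to each other.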

How the results depend on the processing

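Of 1355 alternative values of 55 results, 1171 were classed as unchanged, 87 as stronger and 51 as weaker. A difference was unchanged if it kept its direction and side of the threshold, and a count of passing probes if its size was similar. Differences with an unadjusted p above 0.05 also had to move by less than the SD within groups. The other 46 changed sign, none of them a difference of Tph1 between Groups M and C or between Groups D and M. With normexp, 2 of 12 probes passed in Group M vs Group C, both of Tph1 (0.95 and 0.96), among 137 of all probes where 63 passed before, and 0 passed the methods' criterion in that comparison and 0 between Groups D and M. With dim probes left out, fewer probes were tested and 1 passed in each of these comparisons, the Tph1 probe A_64_P048210 (1.47 and -1.35), among 110 and 295 of all probes. With array weights, 5 and 4 passed, among 8490 and 6870 of all probes, where Tph1 stood at 1.04 and 1.68, and at -0.66 and -1.5. At an unadjusted p, 4 and 4 passed, among 6895 and 6566 of all probes, with Tph1 at 1.06 and 1.47, and at -0.69 and -1.35. By the methods' criterion in place of limma 2 and 1 passed (1.06 and 1.47, and -1.35), among 707 and 805 of all probes. With all 12 arrays 2 and 1 passed this criterion (1.06 and 1.47, and -1.15), among 475 and 288 of all probes. Tph1 as the mean of its probes was 1.26, p = 0.0286 by the exact permutation test and adjusted p = 0.0509 by limma. The cause of these differences was not tested.

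Leaving out each rat in turn gave 0 to 4 passing probes in Group M vs Group C and 0 to 4 between Groups D and M, with 4 in both without M6. Over all probes, 4 to 4912 and 1 to 4550 passed in the same fits, with the most without M6. The Tph1 differences lay between 0.84 and 1.16 and between 1.29 and 1.70 in the first, and between -0.80 and -0.48 and between -1.59 and -1.17 in the second. The methods' criterion was passed by 1 to 3 probes in Group M vs Group C, with 1 without C3 and 1 without M7, while all probes past it ranged from 350 to 1775. An alternative chosen after seeing the data left out the 5 arrays with the brightest leukocyte markers, which leaves M6 alone in Group M. Tph1 was then 0.77 and 0.72 in Group M vs Group C, and -0.39 and -0.63 between Groups D and M. Tph2 lay above background in M6 alone, so that its difference is not measured. With the replicate number as a block, 0 probes passed in each comparison and Tph1 was 1.06 and 1.47 (adjusted p = 0.243 and 0.226). The numbers name rats and do not pair them: deviations of same-numbered rats correlated from -0.56 to -0.04 between Groups C and M, from -0.29 to 0.38 between Groups M and D and from -0.40 to 0.30 between Groups C and D. A slide block could not be fitted, since only 1 slide held 2 groups. Dim probes (Tph2, Htr4) limit what can be read from these arrays.

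The 46 changes of sign were in differences whose unadjusted p on the 11 arrays was above 0.05. Median scaling gave -0.038 for Ddc (A_64_P029797) and -0.00843 for Slc18a1 in Group M vs Group C, 0.032 for Htr2b in Group D vs Group M and 0.041 for Maoa in Group D vs Group C. With all 12 arrays Maoa was -0.014, and with the replicate block Htr2b was 0.00678, both in Group D vs Group M. Array weights gave 0.033 for Ddc (A_43_P14910), 0.073 for the mean of the Ddc probes and -0.15 for Slc18a1 in Group M vs Group C, and 0.44 for Tph2 in Group D vs Group M, where Tph2 was at background in all rats but M6. Without the 5 arrays with the brightest leukocyte markers, Group M minus Group C was 0.33 for Ddc (A_43_P14910), 0.23 for the mean of the Ddc probes, 0.037 for Maoa, 0.048 for Htr3a and 0.043 for Htr4. Group D minus Group M was then -0.29 for Ddc (A_43_P14910), -0.096 for the mean of the Ddc probes, -0.10 for Slc6a4, -0.10 for Maoa and -0.37 for Htr4. Leaving out each rat in turn, Group M minus Group C ranged from -0.12 to 1.64 for Tph2, from -0.10 to 0.21 and from -0.16 to 0.16 for the Ddc probes, from -0.11 to 0.19 for their mean and from -0.091 to 0.16 for Slc18a1. Group D minus Group M ranged from -1.04 to 0.73 for Tph2, from -0.034 to 0.26 for Ddc (A_43_P14910), from -0.13 to 0.022 for Htr2b and from -0.042 to 0.28 for Slc18a1. Group D minus Group C ranged from -0.099 to 0.24 for Tph1 (A_64_P048210), from -0.062 to 0.27 for Ddc (A_43_P14910), from -0.075 to 0.10 for Maoa and from -0.0065 to 0.31 for Slc18a1.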
